A study of Mus musculus with 9 samples.

Results

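The mitochondrial ribosomal protein genes encode the protein shell of the ribosome inside mitochondria, and 71 of them were followed here among 22180 genes measured. A gene was taken when its symbol was Mrpl or Mrps followed by a number, with an optional letter, and each is represented by its probe set with the highest mean level. Of the 71 genes, 43 carry an Mrpl symbol (large subunit) and 28 an Mrps symbol (small subunit). A further 7 genes of that form, Mrpl30, Mrpl33, Mrpl41, Mrpl43, Mrpl44, Mrpl53 and Mrps6, lie only on probe sets that the array annotation gives to several genes and are not counted, so the RefSeq gene table holds 78 in all.

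RNA came from mouse podocytes in culture, epithelial cells that wrap the glomerular capillaries of the kidney, after 11 days of differentiation at 37 °C. The combined group, 3 arrays, received 10 µM forskolin on top of 2.5 µM thapsigargin for 16 hours, the thapsigargin group, 3 arrays, received 2.5 µM thapsigargin alone for 16 hours, and the control group, 3 arrays, received the vehicle DMSO for a time not stated. Thapsigargin inhibits the calcium pump of the endoplasmic reticulum, whose emptied store causes stress; forskolin activates adenylyl cyclase, which makes cAMP. Neither the strain of mouse nor a cell line is named in the sources used here, and the labels call the arrays biological replicates without saying what was separate between them, so p-values cover the spread between these arrays alone.

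Mitochondria keep their own ribosome, which translates the few messages of the mitochondrial genome into core subunits of the respiratory chain and of ATP synthase. Its ribosomal RNAs are made inside the organelle, whereas every protein of it is encoded in the nucleus, made on cytosolic ribosomes and imported. Some of its proteins descend from bacterial ribosomal proteins and others were added later in evolution. Endoplasmic reticulum stress lowers general translation in the cytosol, and podocytes are known to depend on mitochondrial as well as glycolytic ATP.

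Symbols do not always give the place of a protein. Mrps30 and Mrps18a sit in the large subunit in the known structures of the mammalian ribosome, and Mrps36 is a component of the α-ketoglutarate dehydrogenase complex. Placed by structure, the genes fall into 45 of the large subunit and 25 of the small subunit, with Mrps36 in neither.

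The start regions of the 3 genes that rose most with thapsigargin, Mrpl32, Mrps30 and Mrps27, and of the 2 that fell most, Mrpl49 and Mrps21, are shown because these 5 genes mark the ends of the range described below. Each runs 5′ to 3′ from 250 bases before the annotated start to 50 bases after it, from RefSeq on build GRCm38.p6. The places are chr13:14612988-14613287 on the minus strand for Mrpl32, chr13:118387203-118387502 on the minus strand for Mrps30 and chr13:99344536-99344835 on the plus strand for Mrps27. Mrpl49 lies at chr19:6057706-6058005 and Mrps21 at chr3:95871465-95871764, both on the minus strand. Capitals mark exact matches, on either strand, to 4 motifs: the ETS motif CCGGAAG, the core NRF1 motif GCATGCGC, the YY1 motif AAGATGGC and the cAMP response element TGACGTCA.
Mrpl32: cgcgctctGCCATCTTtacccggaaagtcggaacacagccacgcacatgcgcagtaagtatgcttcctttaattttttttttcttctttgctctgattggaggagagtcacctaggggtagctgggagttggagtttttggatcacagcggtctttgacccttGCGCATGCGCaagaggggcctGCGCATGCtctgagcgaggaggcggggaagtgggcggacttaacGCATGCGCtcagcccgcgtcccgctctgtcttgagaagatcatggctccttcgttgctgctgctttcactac
Mrps30: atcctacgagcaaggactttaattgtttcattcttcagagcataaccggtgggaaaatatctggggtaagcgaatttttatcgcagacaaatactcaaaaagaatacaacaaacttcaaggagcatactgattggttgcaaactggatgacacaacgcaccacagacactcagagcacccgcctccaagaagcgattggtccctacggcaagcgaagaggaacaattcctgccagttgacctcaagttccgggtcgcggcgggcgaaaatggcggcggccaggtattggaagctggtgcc
Mrps27: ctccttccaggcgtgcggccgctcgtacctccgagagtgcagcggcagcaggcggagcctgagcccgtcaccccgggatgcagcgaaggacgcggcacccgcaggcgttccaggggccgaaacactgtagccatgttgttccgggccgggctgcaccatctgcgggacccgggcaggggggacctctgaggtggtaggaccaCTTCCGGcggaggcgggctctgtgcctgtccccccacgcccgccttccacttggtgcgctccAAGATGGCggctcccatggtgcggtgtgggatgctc
Mrpl49: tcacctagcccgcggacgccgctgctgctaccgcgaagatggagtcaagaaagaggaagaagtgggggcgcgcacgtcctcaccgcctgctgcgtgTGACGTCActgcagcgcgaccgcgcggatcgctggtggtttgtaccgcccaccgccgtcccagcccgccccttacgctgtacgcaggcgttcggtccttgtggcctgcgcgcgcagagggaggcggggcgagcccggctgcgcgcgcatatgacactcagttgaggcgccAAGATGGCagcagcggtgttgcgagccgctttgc
Mrps21: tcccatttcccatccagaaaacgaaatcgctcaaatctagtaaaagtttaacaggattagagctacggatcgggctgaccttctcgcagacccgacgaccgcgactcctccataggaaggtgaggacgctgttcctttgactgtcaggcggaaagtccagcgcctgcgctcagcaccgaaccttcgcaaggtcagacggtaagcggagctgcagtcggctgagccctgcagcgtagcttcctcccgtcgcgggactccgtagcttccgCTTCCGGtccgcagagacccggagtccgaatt

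Mrpl32 held the core NRF1 motif 87, 85, 66 and 22 bases before its start, the first pair overlapping, and a YY1 motif 242 bases before it. Mrps27 held an ETS motif 48 bases before its start and a YY1 motif 14 bases after it. Mrpl49 held the cAMP response element 154 bases before its start and a YY1 motif 16 bases after it, and Mrps21 an ETS motif 18 bases after its start. In Mrps30 none of these letters occurred in the window, which says nothing of the factors themselves.

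A window was found for 62 of the 71 genes, and the first one listed for each gene was used. The ETS motif, bound by factors such as GABPA, occurred in 22 of the 62 windows, or 35.5%, against 9.12% of the windows of 27025 genes. The YY1 motif occurred in 12, or 19.4% against 2.88%, and the core NRF1 motif in 7, or 11.3% against 2.80%. The family's windows were also richer in G and C, with a median of 58.2% against 52.7% for all genes, and the part this plays in the motif shares was not tested. The ETS motif occurred in 13 of 32 windows of genes that rose with thapsigargin, in 4 of 8 of those that fell and in 5 of 22 of the others. Of motifs tied to endoplasmic reticulum stress, only TGATGNAA, bound by ATF4, and TGACGTGG, bound by XBP1 and ATF6, were searched. Each occurred in 0 of the 62 windows, against 4.06% and 0.607% of all windows. At shares this low few matches or none would be met in 62 windows, so the 0 says little, and other stress elements were not searched. The cAMP response element occurred in 2 of the 62, or 3.23% against 1.88%, and the E-box CACGTG, bound by MYC, in 5, or 8.06% against 7.24%. The motifs were searched on both strands, CCGGAAG and the others as exact letters with N for any base, and no overlap between different motifs was removed.

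With thapsigargin, most of these genes rose. Against DMSO, 39 of the 71 rose, 8 fell and 24 did not pass the test, where 18.2% of all genes tested rose and 16.9% fell. The median log2 change was 0.29 for the family and −0.04 over all genes, and single genes ranged from −0.80 to 1.02. The changes were mostly modest, since Mrpl32, Mrps30 and Mrps27 alone rose at least 2-fold, as did 3.08% of all genes. These counts use 1 probe set a gene, and a second probe set of Mrps18b rose by 1.31, more than any value counted. Of the 9 members with more than 1 probe set, 4 had both called in the same direction, 1 had 1 called, 4 had none called and 0 had calls in opposite directions. A gene was called where limma's p, adjusted after Benjamini and Hochberg over the 22180 genes, fell below 0.05. Values on the thapsigargin and DMSO arrays did not overlap for 44 genes that were higher and 9 that were lower, against 21.6% and 22.3% of all genes.

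Most members are well above the middle of the scale, and such genes are called more often. In a second count, genes were kept where either compared group had a mean over 5.84, the median log2 value of the probe sets. They were adjusted together. Of these 31.5% rose and 28.5% fell, and of the 70 members among them (Mrps36 was too dim) 40 rose and 8 fell. Mrps14, at 5.38 on DMSO and 6.10 on thapsigargin arrays, and Mrpl27, at 5.77 and 5.97, passed only through their higher group. The filter thus uses the values that are compared and is not an independent check. The values are relative, since the authors' normalization makes the arrays' distributions alike, and in bulk RNA fewer cells of a type cannot be told apart from less RNA per cell. Subtracting each array's median over the genes tested, a setting chosen after seeing the data, gave 43 members that rose and 4 that fell, beside 4634 and 2816 of all genes in place of 4026 and 3742.

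**Figure D1:**
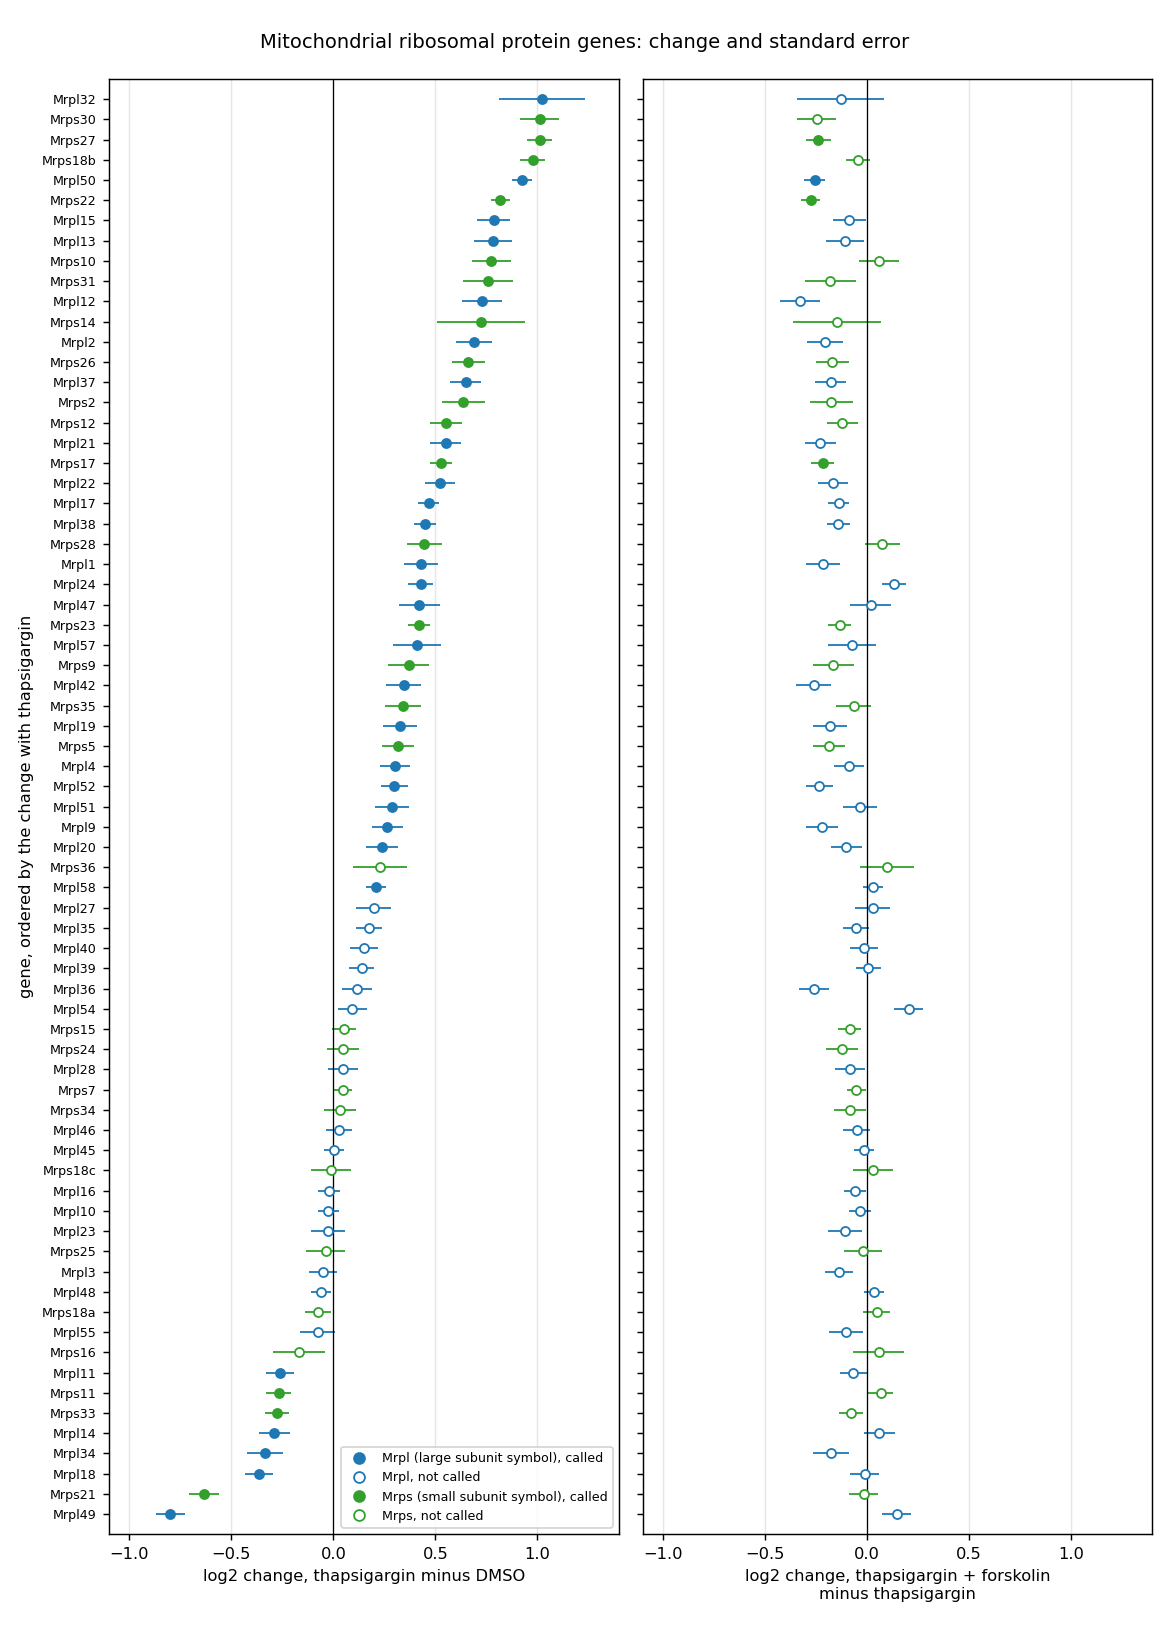
Change of each of the 71 genes on the log2 scale with its limma standard error, thapsigargin minus DMSO on the left and thapsigargin with forskolin minus thapsigargin on the right, with genes in the same order in both panels. Filled points passed the test; on the left 39 lie to the right of 0 and 8 to the left, and on the right 4 filled points lie to the left and none to the right.

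The sharpest rises of the large subunit were in Mrpl32 and Mrps30. Mrpl32, whose protein is cut to its mature form by the m-AAA protease before it joins the ribosome, had log2 values of 8.80, 8.46 and 8.78 on thapsigargin arrays, against 7.21, 7.61 and 8.15 on DMSO arrays. All 3 thapsigargin values lay above the DMSO values, which spread over nearly a whole log2 unit, and the rise was 1.02 ± 0.21 (limma standard error, 3 arrays a group; adjusted p = 0.0038). Mrps30, a protein of the large subunit in spite of its symbol, had values of 8.86, 8.65 and 8.73 on thapsigargin arrays, against 7.54, 7.74 and 7.92 on DMSO arrays. Its groups stood apart by more than the spread within either, a rise of 1.01 ± 0.09 (limma adjusted p = 1.98e-05).

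Mrpl50, a protein of the large subunit with no bacterial counterpart, had 9.39, 9.29 and 9.37 on thapsigargin arrays, against 8.39, 8.43 and 8.45 on DMSO arrays. The arrays of each group were nearly alike, and the rise of 0.93 ± 0.05 had the smallest adjusted p of the family in this comparison (limma adjusted p = 5.8e-07). Mrpl15 and Mrpl13, both related to bacterial proteins of the large subunit, rose by 0.79 ± 0.08 and 0.78 ± 0.09. Mrpl12, the stalk protein that meets the translation factors and is also known to bind the mitochondrial RNA polymerase, had 7.92, 7.59 and 7.83 on thapsigargin arrays, against 6.93, 6.995 and 7.23 on DMSO arrays. Its groups did not overlap and the rise was 0.73 ± 0.10 (limma adjusted p = 0.000259); a second probe set of Mrpl12 had a value of 0.31 that did not pass.

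In the small subunit, Mrps27, a protein with pentatricopeptide repeats, had 8.39, 8.42 and 8.30 on thapsigargin arrays, against 7.35, 7.45 and 7.28 on DMSO arrays. The difference of 1.01 ± 0.06 was many times the spread within either group (limma adjusted p = 9.63e-07). Mrps18b, a paralog of the S18 type that is specific to mitochondria, had 9.89, 9.78 and 9.85 on thapsigargin arrays, against 8.92, 8.84 and 8.82 on DMSO arrays, a rise of 0.98 ± 0.06 (limma adjusted p = 1.25e-06). Mrps22, a mitochondria-specific protein whose loss in humans causes mitochondrial disease, had 8.48, 8.48 and 8.51 on thapsigargin arrays, against 7.70, 7.65 and 7.65 on DMSO arrays. It rose by 0.82 ± 0.05 (limma adjusted p = 8.71e-07).

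Mrps10, related to bacterial S10, rose by 0.78 ± 0.10, and Mrps31, which has no bacterial counterpart, by 0.76 ± 0.12. Mrps12, the protein at the decoding centre, had 8.01, 7.85 and 7.92 on thapsigargin arrays, against 7.25, 7.49 and 7.39 on DMSO arrays, and rose by 0.55 ± 0.08. Mrps14, among the dimmest genes of the family, rose by 0.72 ± 0.22 (limma adjusted p = 0.0265), a call that was lost under some other settings.

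The genes that fell did so mostly by less. Mrpl49, a large subunit protein without a bacterial counterpart, had 8.61, 8.77 and 8.62 on thapsigargin arrays, against 9.35, 9.52 and 9.53 on DMSO arrays, and fell by 0.80 ± 0.07 on the log2 scale (limma adjusted p = 1.27e-05). Mrps21, the relative of bacterial S21, had 7.54, 7.34 and 7.50 on thapsigargin arrays, against 8.18, 8.02 and 8.07 on DMSO arrays, and fell by 0.63 ± 0.07 (limma adjusted p = 7.25e-05). In both genes every thapsigargin value lay below every DMSO value. Mrpl18, whose bacterial relative binds 5S ribosomal RNA, fell by 0.36 ± 0.07, and Mrpl34, related to bacterial L34, by 0.34 ± 0.09. Mrpl34 had exactly the value 8.88 on all 3 thapsigargin arrays, which lowers its estimated spread. The falls of Mrpl14, Mrps33, Mrps11 and Mrpl11 lay between 0.29 and 0.26, and all 4 lost their call under at least 1 of 18 other settings. Under all 18, 33 of the 39 rises and the 4 larger falls kept their call. The 18 include subtraction of medians of the genes tested, chosen after seeing the data, which left 4 falls. It raised the family's median change from 0.29 to 0.36. Such a shift removes small falls and keeps rises, so these counts do not compare how robust rises and falls are.

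Some of the brightest members and those that stand apart by their place were measured as follows. Mrpl52, with the highest mean on DMSO arrays (9.96), had 10.30, 10.21 and 10.27 on thapsigargin arrays, against 10.09, 9.86 and 9.94 on DMSO arrays, a rise of 0.30 ± 0.07 (limma adjusted p = 0.0059). Mrpl10, the protein to which the stalk attaches and the second brightest on DMSO arrays, differed by −0.03. Mrps18a, which belongs to the large subunit, had 8.49, 8.33 and 8.52 on thapsigargin arrays, against 8.51, 8.45 and 8.60 on DMSO arrays. The groups overlapped and the difference of −0.08 ± 0.06 did not pass (limma adjusted p = 0.432). Mrps36 was the dimmest member, with 5.10, 4.96 and 5.31 on thapsigargin arrays, against 4.65, 5.001 and 5.03 on DMSO arrays, and its difference of 0.23 ± 0.13 did not pass either (limma adjusted p = 0.229). Mrpl27, the third dimmest on DMSO arrays and related to bacterial L27, had a difference of 0.20 that did not pass.

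**Figure D2:**
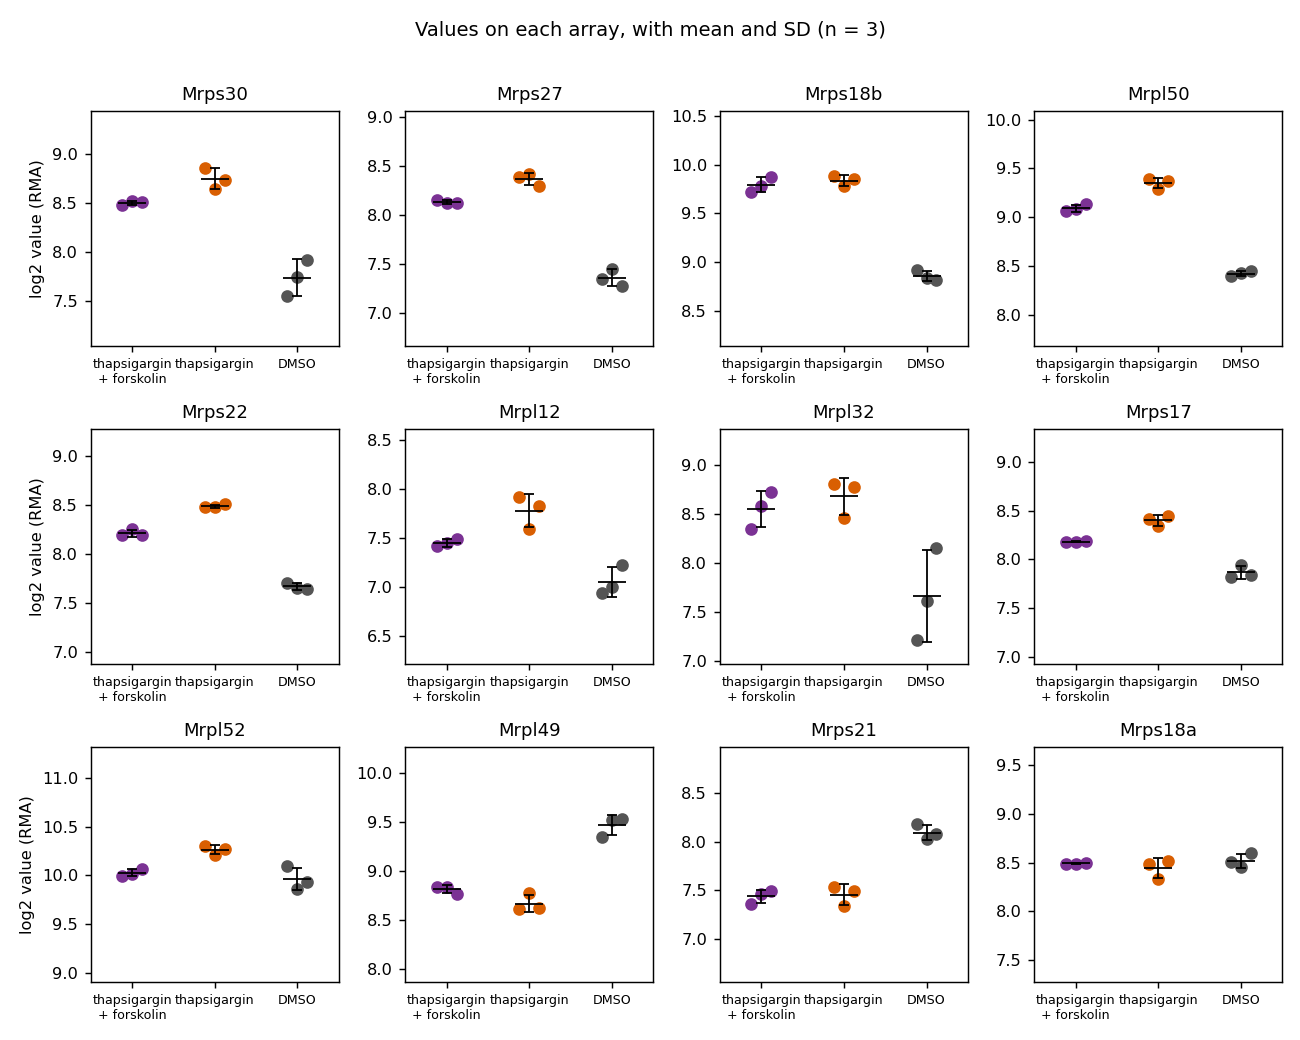
Log2 values of 12 genes on every array (points), with the mean and SD of 3 arrays (bars), thapsigargin with forskolin, thapsigargin and DMSO from left to right. Each panel spans the same height on the log2 scale around its own gene, so changes may be compared across panels but levels may not; Mrpl49 and Mrps21 lie lower in both thapsigargin groups than in DMSO, and Mrps18a overlaps.

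Both subunits moved. By symbol, 23 of 43 Mrpl genes rose and 5 fell (median change 0.24), beside 16 and 3 of 28 Mrps genes (median 0.36). Of all genes 18.2% rose and 16.9% fell. Placed by structure, 24 of 45 large subunit genes rose and 5 fell, and 15 of 25 small subunit genes rose and 3 fell, with medians of 0.24 and 0.37. The mean over the Mrpl genes was 8.26, 8.23 and 8.29 on thapsigargin arrays, against 7.98, 8.01 and 8.08 on DMSO arrays. The mean over the Mrps genes was 8.15, 8.08 and 8.17 on thapsigargin arrays, against 7.76, 7.82 and 7.83 on DMSO arrays. In neither subunit did the thapsigargin and DMSO arrays overlap, and no test of a difference between the subunits was made because genes are not replicates.

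The genes were also counted by whether they were classed as having a bacterial counterpart. Mrps18a and the S18 paralog Mrps18b were classed as without one. Beside the counts below, 18.2% of all genes rose and 16.9% fell, so falls in these classes are near or under the background. Of 43 genes with a bacterial counterpart 23 rose and 6 fell, with a median change of 0.27, and of 27 without one 16 rose and 2 fell, with a median of 0.30. The 10 small subunit genes without a bacterial counterpart had the highest median of the 4 classes, 0.54, with 7 that rose and 1 that fell, against 0.31 for the 15 with one. Mrps18b, at 0.98, is among these 10, so the contrast depends in part on how it is classed. In the large subunit the medians were 0.21 for 17 genes without and 0.25 for 28 genes with a counterpart.

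**Figure D3:**
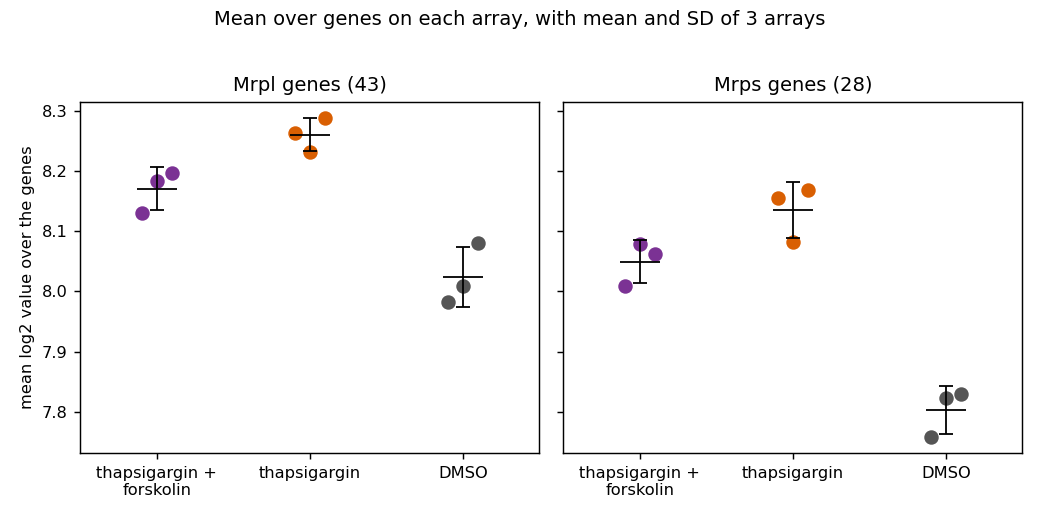
Mean log2 value over the 43 Mrpl genes (left) and the 28 Mrps genes (right) on each array (points), with the mean and SD of 3 arrays (bars). The thapsigargin arrays lie highest, those with forskolin added in between and the DMSO arrays lowest in both panels.

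Adding forskolin to thapsigargin lowered few of these genes singly. Against thapsigargin alone, 4 of the 71 fell and 0 rose, where 4.17% of all genes fell and 3.7% rose, so the share of members that fell is near the background. At an unadjusted limma p under 0.05, 18 were lower and 1 was higher, against 10.1% and 8.91% of all genes. This comparison shares its thapsigargin arrays with the one above, so the values of each are given side by side. The median log2 change was −0.09, beside −0.01 over all genes. The value was below 0 for 55 of the 71 genes. Among the brighter genes 7 of 70 members fell and 0 rose, against 9.92% and 8.42% of such genes, and the value was below 0 for 78.6% of the 70 and 53.7% of such genes. Values did not overlap for 26 genes that were lower and 2 that were higher, against 14% and 12.1% of all genes.

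The 4 that fell were Mrps22, Mrpl50, Mrps27 and Mrps17. Mrps22 had 8.19, 8.25 and 8.19 with forskolin added, against the 8.48, 8.48 and 8.51 of thapsigargin alone given above, and fell by 0.28 ± 0.05 (limma adjusted p = 0.00699). Mrpl50 had 9.06, 9.09 and 9.13 with forskolin added, below each of its thapsigargin values, and fell by 0.26 ± 0.05 (limma adjusted p = 0.0141). Mrps27 had 8.16, 8.12 and 8.12 with forskolin added and fell by 0.24 ± 0.06 (limma adjusted p = 0.0432). In these genes the arrays with forskolin lay between thapsigargin and DMSO. Mrps17, related to bacterial S17, had 8.18, 8.18 and 8.19 with forskolin added, against 8.41, 8.34 and 8.45 with thapsigargin alone, and fell by 0.22 ± 0.05 (limma adjusted p = 0.0429). Its change with thapsigargin against DMSO was 0.53 ± 0.05. A second probe set of Mrps17 had a value of −0.12 for forskolin added that did not pass. Mrps22 (8.18925), Mrps27 (8.12352) and Mrps17 (8.17737) each repeated a value exactly among the combined arrays, which lowers the estimated spread.

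The calls of this comparison depended on single arrays. The count of 4 was 1 without thapsigargin replicate 1, without thapsigargin replicate 3, without combined replicate 1 (where 1 gene also rose) and without combined replicate 2, and it was 7 without DMSO replicate 1, which enters through the shared spread. Of the 4 genes Mrps22 alone kept its call under all 18 settings.

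Several members had values that did not pass. Mrpl12 had 7.42, 7.45 and 7.49 with forskolin added, all below its thapsigargin values of 7.92, 7.59 and 7.83, a difference of −0.33 ± 0.10 (limma adjusted p = 0.0906). Mrpl54, a large subunit protein without a bacterial counterpart, had 9.08, 9.26 and 9.34 with forskolin added, against 9.03, 8.98 and 9.06 with thapsigargin alone, a difference of 0.20 ± 0.07 (limma adjusted p = 0.146). Among the Mrpl genes Mrpl49 followed at 0.15 and Mrpl24 at 0.13. The highest values of the Mrps genes were 0.10 for Mrps36 and 0.08 for Mrps28. Mrpl32 differed by −0.13 ± 0.21 (limma adjusted p = 0.823) and Mrps18b by −0.04 (limma adjusted p = 0.781).

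By symbol, 1 of 43 Mrpl genes and 3 of 28 Mrps genes fell, with medians of −0.09 and −0.08. Of all genes 4.17% fell, and counts this small changed when single arrays were left out. The mean over the Mrpl genes was 8.13, 8.18 and 8.20 with forskolin added, against 8.26, 8.23 and 8.29 with thapsigargin alone. The mean over the Mrps genes was 8.01, 8.08 and 8.06 with forskolin added, against 8.15, 8.08 and 8.17 with thapsigargin alone, where the nearest arrays differ only in the third decimal.

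With both agents the family still lay above DMSO. Against DMSO, 29 of the 71 rose, 8 fell and 34 did not pass, where 17.9% of all genes rose and 16.7% fell. This comparison shares its DMSO arrays with that of thapsigargin alone, so their changes are set side by side and not correlated. The median change was 0.20 with both agents and 0.29 with thapsigargin alone, beside −0.04 over all genes in each. Values did not overlap for 38 genes that were higher and 10 that were lower, against 21.4% and 21.2% of all genes. Among the brighter genes 35 of 70 members rose and 9 fell, against 30.9% and 28.1% of such genes. Mrps14 and Mrpl27 again passed that filter only through the group where they were higher.

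The genes with the largest rises over DMSO were Mrps18b, at 0.93 with both agents (limma adjusted p = 1.97e-06) and 0.98 with thapsigargin alone, and Mrpl32, at 0.89 (limma adjusted p = 0.00861) and 1.02. Mrps18b had 9.72, 9.79 and 9.87 with both agents, which overlapped with thapsigargin alone, and Mrpl32 had 8.35, 8.58 and 8.72. Mrps10 rose by 0.84 with both agents and by 0.78 with thapsigargin alone. Mrps27 stood at 0.77 and 1.01, Mrps30 at 0.76 and 1.01, and Mrpl50 at 0.67 and 0.93. Mrpl15 rose by 0.70 over DMSO, Mrpl13 by 0.67 and Mrps31 by 0.58. Mrpl24, the third brightest on DMSO arrays, had 10.09, 10.06 and 9.98 with both agents, 9.97, 9.87 and 9.89 with thapsigargin alone and 9.42, 9.46 and 9.57 with DMSO, so it rose by 0.56 with both agents and 0.43 with thapsigargin alone. Mrpl12 rose by 0.40 ± 0.10 (limma adjusted p = 0.0108), a call that was lost when its probe sets were averaged.

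Mrpl49 and Mrps21 also had the largest falls with both agents. Mrpl49 had 8.83, 8.84 and 8.77 with both agents and fell by 0.65, and Mrps21 had 7.37, 7.46 and 7.50 and fell by 0.65. Mrpl34, with 8.69, 8.71 and 8.71, fell by 0.51. Mrpl18 fell by 0.38, Mrps33 by 0.35, Mrpl11 by 0.33, Mrpl14 by 0.23 and Mrps11 by 0.20. Mrpl54 rose by 0.30 over DMSO with both agents (limma adjusted p = 0.00959), against a value of 0.09 with thapsigargin alone that did not pass. By symbol, 16 of 43 Mrpl genes rose and 5 fell, beside 13 and 3 of 28 Mrps genes. Of all genes 17.9% rose and 16.7% fell. Mrps36, at 0.33, did not pass (limma adjusted p = 0.0881).

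Structural proteins of the ribosome with other names moved in part with the family. Of 5 such genes 3 were measured. Ptcd3, a pentatricopeptide protein of the small subunit, rose by 0.84 ± 0.05 with thapsigargin and fell by 0.33 ± 0.05 when forskolin was added (limma adjusted p = 0.00402). Dap3, a small subunit protein that binds GTP, rose by 0.22 (limma adjusted p = 0.0212), and Gadd45gip1, of the large subunit, had a value of 0.17 that did not pass (limma adjusted p = 0.0998).

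Genes that build and serve the mitochondrial ribosome were also higher with thapsigargin, where 18.2% of all genes rose and 16.9% fell. Of 26 measured assembly and ribosomal RNA modification genes 18 rose and 0 fell in limma (1 was lower at an unadjusted p under 0.05, as were 21.2% of all genes), with a median change of 0.46. The GTPase gene Gtpbp10 rose by 1.35 ± 0.11 and Tfb1m, which encodes the methyltransferase of the small ribosomal RNA, by 1.25 ± 0.07, followed by Ddx28 at 0.86 and Mterf3 at 0.84. Of 13 translation factor genes 9 rose and 0 fell (median 0.43), and 0 were lower at an unadjusted limma p under 0.05 too. Those that rose include the elongation factor genes Gfm1 at 0.70 and Tsfm at 0.55 and the release factor genes Mtrf1l at 0.66 and Mtrf1 at 0.56. Of 19 genes for tRNA synthetases and the glutamyl-tRNA amidotransferase 8 rose and 0 fell (median 0.16), with Nars2 at 1.32, Gatc at 0.97, Yars2 at 0.94 and Rars2 at 0.92. Here too 0 were lower at an unadjusted limma p under 0.05.

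The genes that transcribe mitochondrial DNA and process its RNA had a median change of 0.76, and 12 of 16 rose while 1 fell. The shares over all genes were again 18.2% and 16.9%. Tfam, the packaging and transcription factor of mitochondrial DNA, rose by 1.24 ± 0.12, Fastkd1 by 1.15, the transcription factor gene Tfb2m by 1.01 and Trmt10c, a subunit of the RNase P of mitochondria, by 0.95. The gene that fell was Hsd17b10, another subunit of that enzyme, at −0.62 (chosen for the text with its value known). Of 23 genes for import, folding and proteolysis 16 rose and 1 fell (median 0.47). The protease gene Lonp1 rose by 2.01 ± 0.07, the chaperonin genes Hspd1 and Hspe1 by 1.43 and 1.24, and the import receptor gene Tomm70a by 1.06. Afg3l2 and Spg7, which encode the m-AAA protease that matures Mrpl32, went opposite ways, at 0.68 and −0.47, and were likewise chosen with their values known.

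Of 11 regulators of nuclear genes for mitochondria 6 rose and 2 fell, where 18.2% of all genes rose and 16.9% fell. The share of regulators that fell, 18.2%, is near the background. Myc rose by 2.43 ± 0.08, the coactivator gene Pprc1 by 1.11 and Gabpa, which encodes the ETS factor, by 0.57, while the coactivator gene Ppargc1a fell by 0.65. Nrf1 was at 0.38 and Yy1 at 0.02 (limma adjusted p = 0.866), both chosen with their values known. Among the genes for proteins of the cytosolic ribosome, 37 of 57 rose and 0 fell, with a median of 0.30 beside 0.29 for the mitochondrial family. At an unadjusted limma p under 0.05, 0 of the 57 were lower.

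With forskolin added, 0 genes of these lists rose over thapsigargin alone in limma, and between 1 and 3 of each list fell. Over all genes 3.7% rose and 4.17% fell. The 1 fall among 26 assembly genes (3.85%) and the 1 among 19 synthetase genes (5.26%) are therefore near the background. The genes that fell were Rbfa at −0.22 among the assembly genes, Oxa1l at −0.22 among the translation factors, Rars2 at −0.34 among the synthetases, Elac2 at −0.31 among the RNA genes and Myc at −0.41 among the regulators. Among the import genes Tomm70a stood at −0.37, Tomm40 at −0.33 and Timm17a at −0.21. At an unadjusted p under 0.05, where 8.91% of all genes were higher and 10.1% lower, 2 of 26 assembly genes were higher and 7 lower, 2 of 23 import genes higher and 7 lower, 1 of 11 regulators higher and 3 lower, and 1 of 57 cytosolic ribosomal genes higher and 8 lower. Of the RNA genes 0 were higher and 6 lower, and of the translation factors and the synthetases 0 were higher and 2 lower each. Against DMSO the counts with both agents were 18 that rose and 0 that fell for assembly, 9 and 1 for translation factors, 11 and 0 for synthetases, 12 and 1 for RNA genes, 14 and 3 for import, 6 and 3 for regulators and 30 and 0 for the cytosolic ribosome. In that comparison 17.9% of all genes rose and 16.7% fell.

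**Figure D4:**
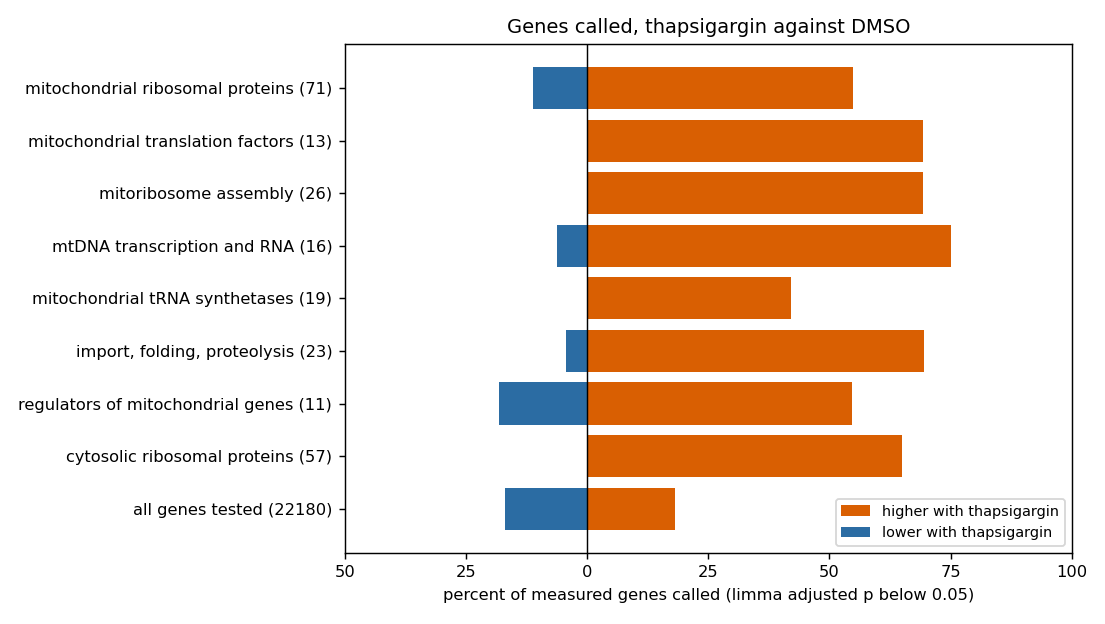
Percent of measured genes called higher (right of 0) or lower (left of 0) on thapsigargin than on DMSO arrays, for each gene group with its number of genes measured. All 9 rows come from one limma fit; the bars for the mitochondrial groups lie further to the right than that of all genes tested, 18.2%.

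The arrays were alike within groups, with Pearson correlations over all probe sets of 0.989 to 0.993 within and 0.966 to 0.992 between groups. The labels' agents showed in the values, since Ddit3, a gene of the stress response, rose by 2.75 with thapsigargin and Nr4a1, a cAMP-induced gene, by 3.22 when forskolin was added. Of the 8 podocyte markers measured, 4 fell and 1 rose with thapsigargin, Synpo at −2.52 among them, and the summed linear level ran from 4447 to 4632 on thapsigargin arrays, against 5359 to 5481 on DMSO arrays. Of 6 tubular markers 3 fell and 0 rose, and their sum ran from 1041 to 1102, against 6441 to 6571 on DMSO arrays. Mesangial markers summed to 834 to 851, against 1599 to 1631, with 1 of 4 that fell, and leukocyte markers to 415 to 449, against 565 to 591, with 1 of 5. Endothelial markers summed to 234 to 257, against 221 to 236, with 0 of 5 called. Over all genes 18.2% rose and 16.9% fell with thapsigargin. The mesangial and leukocyte falls, 25% and 20% of their lists, are single genes and near that background. With forskolin added, podocyte markers summed to 4236 to 4348, against 4447 to 4632 with thapsigargin alone, and tubular markers to 1212 to 1221, against 1041 to 1102. The podocyte list was mixed: 2 of 8 rose and 2 fell, with log2 changes from −0.79 to 0.55, and a linear sum weighs bright genes most. In the tubular, mesangial and leukocyte lists 1 gene each rose and 0 fell. Of all genes 3.7% rose and 4.17% fell when forskolin was added. Mesangial markers then summed to 992 to 998, against 834 to 851, and leukocyte markers to 517 to 527, against 415 to 449. In these 4 lists the combined arrays overlapped with neither thapsigargin alone nor DMSO, and in the endothelial list, at 219.7 to 236.1, they overlapped with both. The part of these shifts in the changes of the ribosomal genes was not tested.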

How the data were processed

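Total RNA of podocytes was hybridised to 9 single-colour arrays, 3 per group; titles gave groups and replicate numbers. The authors deposited log2 values for each probe set. Per the submitters' processing notes these came from the tools affy and RMA. RMA corrects background and equalises the distributions of the arrays, so changes are relative. Neither versions nor a genome build are named in the sources used here. Detection above background was not checked, because scanner files are not used here, and the number of arrays limits the precision. Of 41345 probe sets, 23521 have 1 gene symbol in the platform annotation, 1814 several and 16010 none. Entrez IDs matched 23328 of those with 1 symbol to RefSeq's GRCm38.p6 gene table, and 0 symbols changed. A gene is represented by its probe set with the highest mean over 9 arrays; 9 family members have more than 1.

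Group means were fitted to all 9 arrays together in limma 3.58.1 (R 4.3.3), without covariates, which left 6 residual degrees of freedom. The 3 contrasts were tested two-sided after eBayes and adjusted after Benjamini-Hochberg over 22180 genes, with calls below 0.05. The procedure was tested on simulated data. Lists were described by counts and medians with no test. The members and lists were chosen with earlier results of these data known. Genes named are, per comparison, up to 10 called rises and 10 called falls whose groups do not overlap, the 3 brightest and 3 dimmest members on DMSO arrays, a fixed set of 6, and up to 4 called genes per list; where under 4 members were called in a direction, the 2 largest differences of each subunit are given as values. Genes outside this rule are marked. Start regions came from RefSeq. Figures used Python 3.11.15 and matplotlib 3.10.9.

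The alternatives were subtraction of array medians, a repeated quantile normalization, a fit of the 6 arrays compared, a trended robust prior, array weights, brighter genes, averaged probe sets, a block for the replicate number and omission of each array in turn. Subtraction of the medians of the genes tested was added after seeing the data.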

Additional observations from a re-analysis of the deposited data

Results flagged for a closer look

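A signal appeared in probe sets that the comparisons above do not use. Of 9 probe sets that the annotation gives to one of the 7 uncounted family genes together with another gene, 1 was higher and 2 were lower on thapsigargin than on DMSO arrays, with log2 changes from −0.73 to 0.50. Among the 22180 genes 18.2% rose and 16.9% fell in that comparison, so 1 and 2 of 9 are near the background. With forskolin added, 1 of the 9 passed limma's test against thapsigargin alone, upward, where 3.7% of the genes rose. The values cannot be given to either gene of a pair, and no explanation was tested.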

How the results depend on the processing

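For thapsigargin against DMSO the median change of 0.29 was 0.32 after subtracting array medians, 0.36 after subtracting medians of the genes tested and 0.24 with array weights. The count of 8 falls was 4 after subtracting medians of the genes tested. Leaving out each array in turn gave 34 to 39 rises, 7 to 9 falls and a median of 0.22 to 0.30. For forskolin added to thapsigargin, the 4 falls were 1 after subtracting medians of the genes tested and 7 among brighter genes; leaving out arrays gave 1 to 7 falls, 0 to 1 rises and medians of −0.10 to −0.06. For both agents against DMSO the median of 0.20 was 0.28 after subtracting medians of the genes tested and 0.15 after quantile normalization again, and leaving out arrays gave 27 to 29 rises, 6 to 8 falls and medians of 0.14 to 0.21. The cause of these shifts was not tested.

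Same-numbered arrays correlated between −0.07 and 0.25 in their deviations from group means, and differently numbered arrays between −0.30 and 0.25. The pairs of replicate 3 ran from 0.18 to 0.23. These values do not settle whether the numbers pair samples. The labels state no pairing, so none was used in the main fit. A replicate block gave 38 rises and 8 falls, 0 and 3, and 29 and 7 in the 3 comparisons.

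Values near 0 changed sign. After subtracting medians of the genes tested Mrps18a was 0.0025 for thapsigargin and 0.0488 for both agents against DMSO. Leaving out arrays, it ran from −0.0622 to 0.0104 for both agents, turning without DMSO replicate 3, and from −0.0106 to 0.0832 for forskolin added, turning without thapsigargin replicate 2. Mrps36 ran from −0.000972 to 0.19 for forskolin added, turning without combined replicate 2. Mrpl12 passed the test for forskolin added among brighter genes, with the mean of its probe sets and without thapsigargin replicate 2. Among the other settings of named genes, 389, 151 and 375 values kept direction and call in the 3 comparisons, and 5, 23 and 18 lost the call.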
